A study of Rattus norvegicus with 36 samples.

Results

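Fatty acid synthesis and desaturation are represented here by 10 genes, chosen by name as a pathway, with no threshold on a measured value. They were chosen with earlier results of these data known. All 10 were on the array, through 16 probe sets assigned to 1 gene alone, out of 14217 genes named by 31042 tested probe sets. They are Acly, Acaca, Fasn and Elovl6, which build saturated fatty acids from cytosolic carbon, Scd, which makes monounsaturated from saturated acids, Fads1, Fads2 and Elovl5, which make long polyunsaturated acids from dietary ones, Me1, which supplies NADPH, and Srebf1, which encodes the transcription factor SREBP-1.

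The samples were livers of 36 male Harlan Sprague Dawley rats, 6 animals in each of 6 groups. PBDE47 is 2,2',4,4'-tetrabromodiphenyl ether, a brominated flame retardant. The 5 treated groups were gavaged on 5 days in a row with corn oil holding 1 of 5 doses, spaced 10-fold apart from 0.0485 to 485 mg/kg. The vehicle group, labelled 0 mg/kg, was given the oil alone, so corn oil was common to all 6 groups. The rats were 7 weeks old when dosing began and ate the NTP-2000 diet. Necropsy was 1 day after the last dose, and RNA came from the left liver lobe, 1 animal per Affymetrix array. The labels give no feeding state or time of day at necropsy, both of which alter these genes in rat liver.

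As background, hepatocytes turn citrate from mitochondria into acetyl-CoA (Acly), carboxylate it to malonyl-CoA (Acaca) and build palmitate from these units with NADPH (Fasn). Elovl6 lengthens palmitate to stearate, and Scd introduces a double bond into the product. Insulin, acting through SREBP-1c, and glucose, acting through ChREBP (Mlxipl), raise the whole set after a meal, liver X receptors raise Srebf1 itself, and dietary polyunsaturated fat lowers the set. Thyroid hormone raises Me1, Fasn and Thrsp in rat liver, and Me1 is also a target of NRF2, a sensor of oxidants and electrophiles that binds antioxidant response elements.

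Promoters are shown first for Me1, Elovl5, Fads2 and Scd, which stand for the different dose responses among the genes with a window, so that the letters can be set beside the values. The RefSeq promoter table (GRCr8) held a window, from 250 bases before to 50 after the transcription start, for 7 of the 10 genes. Elovl6, Fasn and Acaca were not among them, and Srebf1 had 2 windows. Capitals mark matches, on either strand, to TGACNNNGC (the core of an antioxidant response element), CACGTG (an E-box), CCAAT (reverse ATTGG) or GGGCGG (a GC box, reverse CCGCCC).
Me1, chr8:96540195-96540494, minus strand: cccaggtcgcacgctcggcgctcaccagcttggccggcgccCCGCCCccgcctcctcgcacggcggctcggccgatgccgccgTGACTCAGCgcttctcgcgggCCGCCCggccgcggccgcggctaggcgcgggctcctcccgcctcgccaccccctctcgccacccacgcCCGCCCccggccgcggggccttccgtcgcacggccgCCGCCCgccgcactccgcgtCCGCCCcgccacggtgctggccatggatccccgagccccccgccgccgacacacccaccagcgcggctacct
Elovl5, chr8:87670914-87671213, plus strand: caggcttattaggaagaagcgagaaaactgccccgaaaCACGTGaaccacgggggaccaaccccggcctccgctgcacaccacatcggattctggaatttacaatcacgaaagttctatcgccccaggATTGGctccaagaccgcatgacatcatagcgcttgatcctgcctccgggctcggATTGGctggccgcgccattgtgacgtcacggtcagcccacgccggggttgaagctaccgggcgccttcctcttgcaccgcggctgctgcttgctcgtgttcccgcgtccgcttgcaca
Fads2, chr1:216171984-216172283, minus strand: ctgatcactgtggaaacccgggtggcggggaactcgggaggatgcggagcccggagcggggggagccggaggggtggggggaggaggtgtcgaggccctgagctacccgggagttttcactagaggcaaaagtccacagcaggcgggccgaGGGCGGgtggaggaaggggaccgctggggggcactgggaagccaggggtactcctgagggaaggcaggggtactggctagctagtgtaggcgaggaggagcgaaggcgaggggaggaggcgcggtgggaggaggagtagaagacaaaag
Scd, chr1:253231682-253231981, minus strand: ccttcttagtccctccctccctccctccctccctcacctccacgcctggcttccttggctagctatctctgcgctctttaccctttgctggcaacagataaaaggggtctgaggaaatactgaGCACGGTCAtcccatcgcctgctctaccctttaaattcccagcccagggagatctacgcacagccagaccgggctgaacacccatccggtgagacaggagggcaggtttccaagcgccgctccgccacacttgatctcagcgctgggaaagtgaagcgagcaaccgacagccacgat

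The Me1 window held TGACTCAGC, a match to the antioxidant response core, and 5 GC boxes. The Elovl5 window held 1 E-box and 2 reverse CCAAT boxes, the Fads2 window 1 GC box, and the Scd window only GCACGGTCA, the antioxidant response core read on the other strand. Of all 33469 windows in the table, 12.1% held TGACNNNGC, 6.42% CACGTG, 37.5% CCAAT and 33.1% GGGCGG. TCACNCCAC, a core of SREBP sites, was in 1.12% of all windows and in 0 of the 8 windows of these genes. Such matches describe letters in a short window and are not binding sites, and 0 matches says only that these letters are not in it.

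Values are log2 RMA signals as deposited, so a difference of 1 is a doubling of signal. Levels of different probe sets are not compared with each other. A gene is given by its brightest probe set, and changes are limma estimates ± SE with Benjamini-Hochberg adjustment over 31042 probe sets, called at an adjusted p below 0.05. All comparisons with vehicle share the same 6 vehicle arrays. Statements that groups did not overlap are descriptions, given with no share over all probe sets. Array medians lay between 5.31 and 5.38. Replicate 6 at 4.85 mg/kg stood apart, with a mean correlation of 0.991 to its own group. Because the RNA is from whole liver lobe, fewer cells of a type and less RNA per cell cannot be told apart.

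The 10 genes did not move as a set. At 485 mg/kg Me1, Elovl6 and Acaca rose and Elovl5, Fads2 and Srebf1 fell, with Me1 and Elovl6 both about 3-fold higher (3.12-fold and 3.17-fold) and Fads2 2.23-fold lower. Scd was called lower at 48.5 mg/kg (3.06-fold) and not at 485 mg/kg. Fasn, Acly and Fads1 were called at no dose. At 485 mg/kg, 3 of 10 were called higher and 3 lower, against 7.81% and 7.22% of all probe sets. At 48.5 mg/kg, 2 were higher and 2 lower, against 2.57% and 0.821%. Because the 10 were chosen with earlier results known, these shares are descriptions and not a test of the pathway. At 0.0485, 0.485 and 4.85 mg/kg, 0 of 10 were called in limma, where 0%, 0% and 0.0193% of probe sets were higher and 0% lower. An unadjusted limma p below 0.05 was found for 0, 4 and 1 of the 10 at these 3 doses, and for 1519, 1381 and 2006 of the 31042 probe sets. The 4 at 0.485 mg/kg were Elovl6, Fasn, Acaca and Acly, which varied together among animals (r from 0.70 to 0.85), so they are not 4 separate results. The median change of the 10 was 0.19 at 485 mg/kg beside -0.01 over all probe sets, with 5 of 10 above 0. A moderated F test over all 6 groups called 6 of 10 (Scd, Elovl6, Elovl5, Me1, Fads2, Acaca), against 13% of probe sets. The F call of Scd was lost without vehicle replicate 5, without replicate 3, 4 or 6 at 0.485 mg/kg or without replicate 1 or 2 at 48.5 mg/kg.

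**Figure D1:**
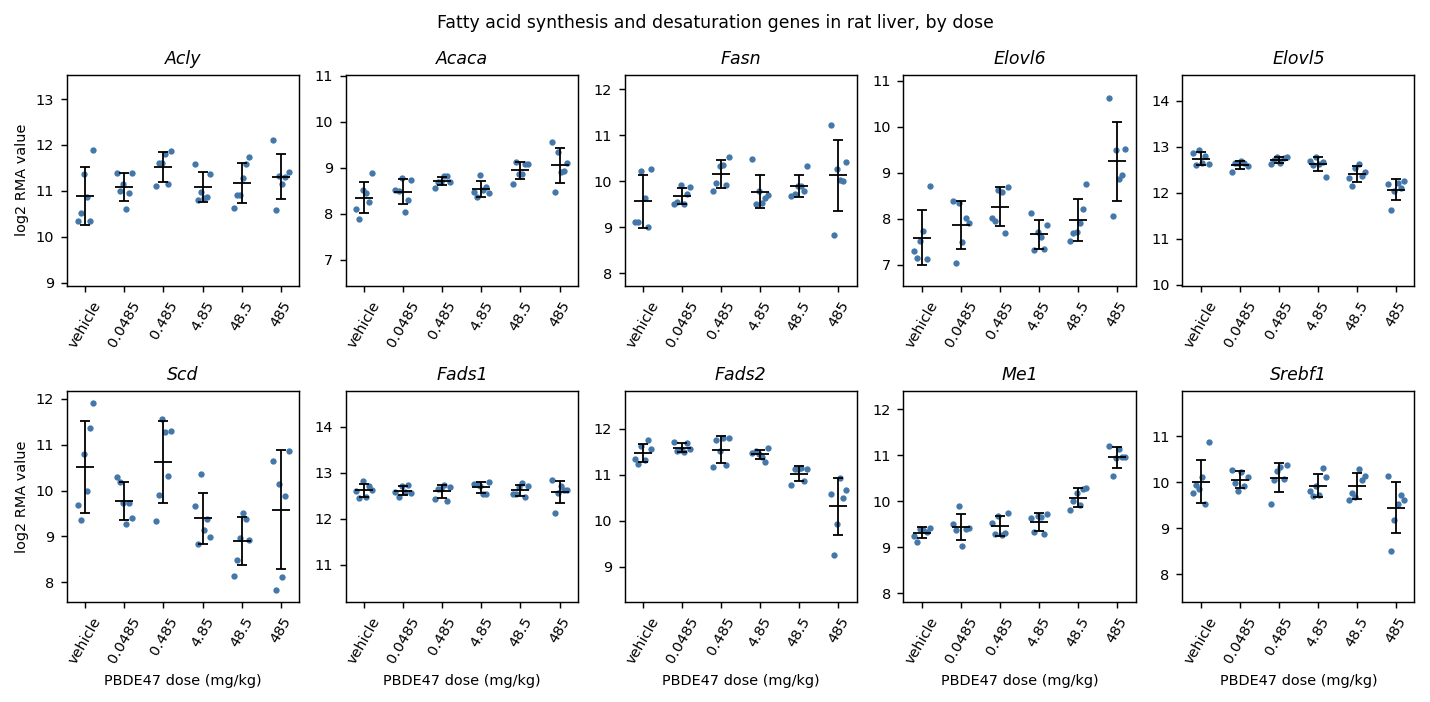
Log2 RMA values of the 10 genes by dose in mg/kg (points, 1 animal each; black bars, mean and SD of 6 animals), each panel spanning the same number of log2 units. Me1 is separated from vehicle at 48.5 and 485 mg/kg, Fads2 lies below vehicle at both, Fads1 is level, and Scd spans 3 log2 units at 485 mg/kg, from 7.84 to 10.86.

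**Figure D2:**
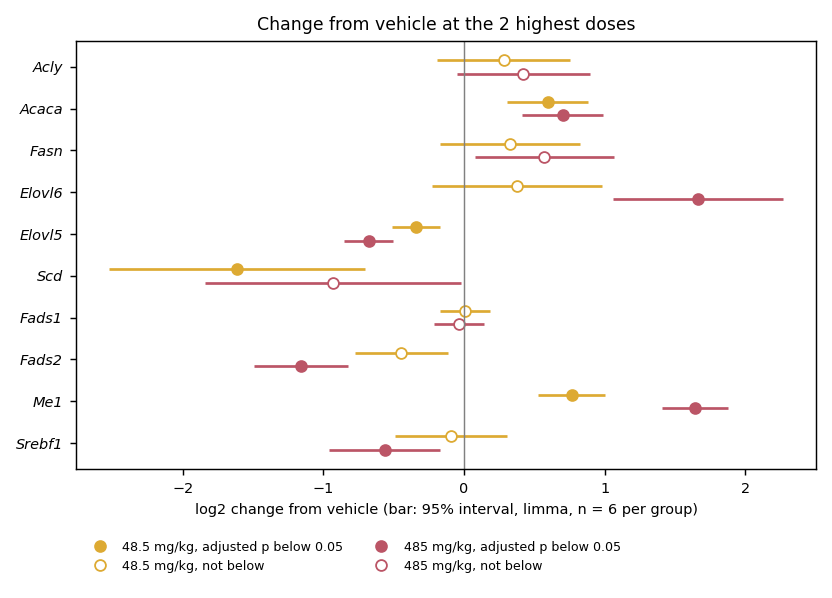
Log2 change from vehicle at 48.5 and 485 mg/kg with 95% intervals from limma (6 animals per group); filled points have an adjusted p below 0.05. Me1, Elovl6 and Acaca lie right of 0 at 485 mg/kg and Elovl5, Fads2 and Srebf1 left of it.

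Me1, cytosolic malic enzyme, had the most regular response. Its vehicle values ran from 9.13 to 9.43 with a median of 9.36, its values at 48.5 mg/kg from 9.81 to 10.30 with a median of 10.10, and its values at 485 mg/kg from 10.56 to 11.19 with a median of 10.96. These 3 groups did not overlap one another. The 3 lower doses ran from 9.02 to 9.91, across the vehicle range. Me1 rose by 0.76 ± 0.12 at 48.5 mg/kg (limma adjusted p = 5.28e-05) and by 1.64 ± 0.12 at 485 mg/kg (adjusted p = 3.23e-13), higher in 6 of 6 animals than the highest vehicle animal at both doses. It was the only member called between 4.85 and 48.5 mg/kg, with a rise of 0.53 ± 0.12 (adjusted p = 0.0145), where 0.886% of probe sets were higher and 0.296% lower. This step lost its call without replicate 5 or replicate 6 at 48.5 mg/kg. A second Me1 probe set gave 1.02 ± 0.18 (adjusted p = 0.000635) and 1.94 ± 0.18 (adjusted p = 3.79e-10) at the same 2 doses.

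Between 48.5 and 485 mg/kg 4 of 10 genes were called, 2 higher and 2 lower, against 2.55% and 2.31% of probe sets. Me1 rose by 0.88 ± 0.12 (limma adjusted p = 3.24e-06) and Elovl6 by 1.29 ± 0.30 (adjusted p = 0.00555). Fads2 fell by 0.71 ± 0.16 (adjusted p = 0.00547) and Elovl5 by 0.34 ± 0.09 (adjusted p = 0.0136), the latter with an adjusted p of 0.0599 without replicate 2 at 485 mg/kg. In a fit of only the 12 arrays of these 2 doses the calls of Fads2 (adjusted p = 0.0945) and Elovl5 (adjusted p = 0.112) were lost. The 2 lower steps, from 0.0485 to 0.485 and on to 4.85 mg/kg, gave 0 called members in limma. Of all probe sets, 0% and 0.0129% were called higher in these steps and 0% lower. An unadjusted limma p below 0.05 was found for 0 and 1 of the 10, and for 1030 and 2041 of 31042 probe sets.

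In the chain that builds saturated fat, Elovl6 had the largest rise. It ran from 7.13 to 8.71 in vehicle (median 7.41), from 7.52 to 8.76 at 48.5 mg/kg (median 7.81) and from 8.07 to 10.63 at 485 mg/kg (median 9.22). At 485 mg/kg 5 of 6 animals lay above every vehicle animal, and replicate 2 lay within the vehicle range. The change was 0.38 ± 0.30 at 48.5 mg/kg (limma adjusted p = 0.600) and 1.66 ± 0.30 at 485 mg/kg (adjusted p = 7.02e-05). The estimate at 48.5 mg/kg was 0.60 without vehicle replicate 6 and 0.22 without replicate 6 at 48.5 mg/kg. The second Elovl6 probe set gave 1.96 ± 0.34 at 485 mg/kg (adjusted p = 5.78e-05).

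Acaca, the carboxylase of the committed step, ran from 7.89 to 8.88 in vehicle (median 8.35), from 8.65 to 9.12 at 48.5 mg/kg (median 8.97) and from 8.47 to 9.56 at 485 mg/kg (median 9.01). The ranges overlapped, with 3 of 6 and 5 of 6 treated animals above all vehicle animals. Acaca rose by 0.59 ± 0.14 at 48.5 mg/kg (limma adjusted p = 0.0123) and 0.70 ± 0.14 at 485 mg/kg (adjusted p = 0.000409), with 0.11 ± 0.14 between the 2 doses (adjusted p = 0.812). On its dimmer second probe set neither dose overlapped vehicle, and both were called (0.43 ± 0.11 and 0.58 ± 0.11).

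Fasn and Acly, which flank Acaca in the pathway, did not pass the test. Fasn ran from 9.01 to 10.27 in vehicle (median 9.38) and from 8.83 to 11.22 at 485 mg/kg (median 10.15), so treated animals lay both below and above the vehicle range. Its change at 485 mg/kg was 0.57 ± 0.24 (limma adjusted p = 0.121). Fasn was called there without replicate 2 at 485 mg/kg (0.83, adjusted p = 0.00600) or without vehicle replicate 6 (0.71, adjusted p = 0.0487), and its estimate was 0.35 without replicate 1 at 485 mg/kg (adjusted p = 0.377). Acly ran from 10.35 to 11.90 in vehicle (median 10.69) and from 10.58 to 12.12 at 485 mg/kg (median 11.31), almost the same span, and its change was 0.42 ± 0.23 (adjusted p = 0.262), or 0.26 without replicate 1 at 485 mg/kg. At 0.485 mg/kg, where no member was called, the estimates were 0.63 ± 0.23 for Acly, 0.59 ± 0.24 for Fasn and 0.67 ± 0.30 for Elovl6, each with a limma adjusted p of 1.00.

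Scd, the delta-9 desaturase, had the largest SD of the 10 over the 36 animals (0.99). Vehicle values ran from 9.35 to 11.90 (median 10.39), those at 48.5 mg/kg from 8.14 to 9.50 (median 8.94) and those at 485 mg/kg from 7.84 to 10.86 (median 10.01). At 48.5 mg/kg 4 of 6 animals lay below all vehicle animals. At 485 mg/kg the group split, with replicates 2 and 4 below the vehicle range and the other 4 animals within it. The change was -1.61 ± 0.45 at 48.5 mg/kg (limma adjusted p = 0.0347) and -0.93 ± 0.45 at 485 mg/kg (adjusted p = 0.178), where it was -0.59 without replicate 2. The difference between the 2 doses, 0.68 ± 0.45 with a 95% interval from -0.23 to 1.59, did not pass the test (adjusted p = 0.511). At the lower doses, none of them called, the estimate was -0.74 ± 0.45 at 0.0485 mg/kg and 0.10 ± 0.45 at 0.485 mg/kg. It was -1.12 ± 0.45 at 4.85 mg/kg (limma adjusted p = 0.641). The estimates were thus not ordered by dose. The call at 48.5 mg/kg was narrow. It was lost in 10 of 22 alternatives, among them leaving out vehicle replicate 3, 5 or 6 or replicate 1, 2, 3 or 6 at 48.5 mg/kg, with adjusted p up to 0.1001 (without vehicle replicate 6).

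Of the genes of polyunsaturated fatty acid synthesis, Elovl5 and Fads2 fell and Fads1 was not called. Elovl5, an elongase of polyunsaturated acids, ran from 12.60 to 12.92 in vehicle (median 12.73), from 12.14 to 12.61 at 48.5 mg/kg (median 12.40) and from 11.62 to 12.24 at 485 mg/kg (median 12.15). At 485 mg/kg all 6 animals lay below the vehicle range, and at 48.5 mg/kg 5 of 6 did. Elovl5 fell by 0.34 ± 0.09 at 48.5 mg/kg (limma adjusted p = 0.0171) and by 0.68 ± 0.09 at 485 mg/kg (adjusted p = 1.87e-07). The call at 48.5 mg/kg was lost without vehicle replicate 3 or without replicate 2 at 48.5 mg/kg, and in a fit of those 12 arrays alone (adjusted p = 0.0549), and the second probe set was called only at 485 mg/kg (-0.76 ± 0.18, adjusted p = 0.00233).

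Fads2, the delta-6 desaturase, ran from 11.23 to 11.75 in vehicle (median 11.45), from 10.77 to 11.16 at 48.5 mg/kg (median 11.12) and from 9.26 to 10.92 at 485 mg/kg (median 10.54). Neither of these doses overlapped vehicle. The change was -0.45 ± 0.16 at 48.5 mg/kg, which did not pass the test (limma adjusted p = 0.141), and Fads2 fell by 1.16 ± 0.16 at 485 mg/kg (adjusted p = 1.64e-06). In a fit of only the 12 arrays of vehicle and 48.5 mg/kg, where the spread at 485 mg/kg does not enter, the same difference had an adjusted p of 0.0297.

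Fads1, the delta-5 desaturase that acts after Fads2 in the same pathway, was called at no dose. It ran from 12.46 to 12.82 in vehicle (median 12.61) and from 12.12 to 12.84 at 485 mg/kg (median 12.61), and its change at 485 mg/kg was -0.04 ± 0.09 with a 95% interval from -0.21 to 0.14. The 2 desaturases were also set against each other within each array, a pair chosen after its values were seen and so given with no test. Fads2 minus Fads1 was -1.14 ± 0.11 in vehicle, -1.59 ± 0.12 at 48.5 mg/kg and -2.27 ± 0.41 at 485 mg/kg (mean ± SD, n = 6). Neither dose overlapped vehicle.

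The same description of the 2 elongases, Elovl6 minus Elovl5, gave -5.15 ± 0.66 in vehicle, -4.43 ± 0.45 at 48.5 mg/kg and -2.81 ± 0.72 at 485 mg/kg (mean ± SD, n = 6). The 48.5 mg/kg group overlapped vehicle and the 485 mg/kg group did not. As for the desaturases, the size of the difference within 1 group is not a ratio of transcripts.

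Srebf1, whose product activates many lipogenic genes, was called only at 485 mg/kg. It ran from 9.52 to 10.88 in vehicle (median 9.90), from 9.61 to 10.30 at 48.5 mg/kg (median 9.90) and from 8.51 to 10.12 at 485 mg/kg (median 9.57), and the groups overlapped, with 2 of 6 animals below the vehicle range. Srebf1 fell by 0.56 ± 0.20 at 485 mg/kg (limma adjusted p = 0.0453), and the second probe set by 0.53 ± 0.18 (adjusted p = 0.0417). The call was lost in 13 of 22 alternatives, among them leaving out vehicle replicate 2, 3, 4 or 6 or replicate 2, 3 or 4 at 485 mg/kg. The estimate was -0.38 without replicate 2 at 485 mg/kg and -0.39 without vehicle replicate 6.

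Within a dose group the members tended to be high or low together, which the dose means do not show. After each group's mean was subtracted, all 45 pairs of the 10 genes correlated above 0 over 36 animals, with Pearson r from 0.16 to 0.85 and a median of 0.55. The 6 pairs among Acly, Acaca, Fasn and Elovl6 ran from 0.70 to 0.85. Fads1 and Fads2, which separated by dose, correlated at 0.82. Elovl5 had the lowest single values, with r of 0.16 to Acly and 0.19 to Elovl6, but 0.59 to Fads1 and 0.54 to Fads2. These pairwise values share their 36 arrays and are descriptions.

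**Figure D3:**
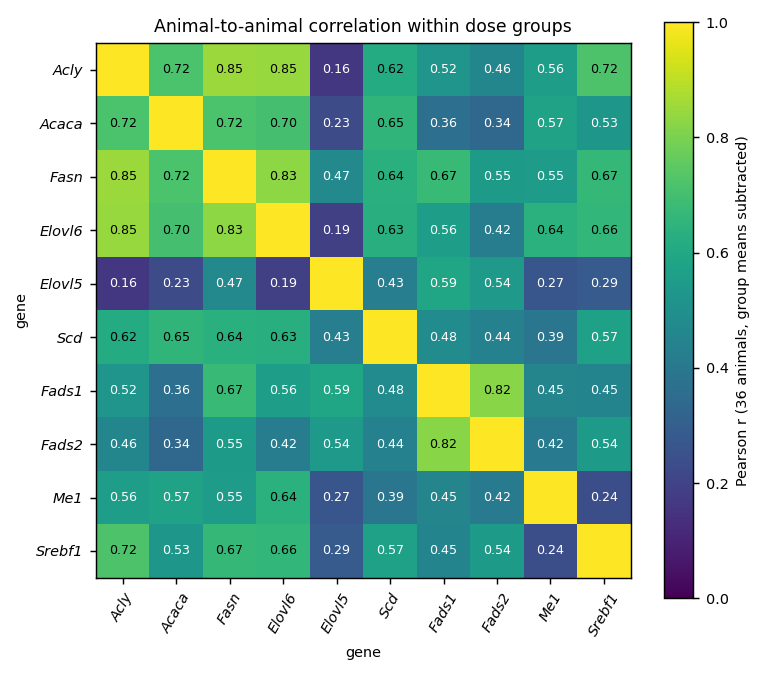
Pearson r between pairs of the 10 genes over 36 animals, after subtraction of each dose group's mean; colour runs from 0 to 1. All 45 values are above 0, and the block of Acly, Acaca, Fasn and Elovl6 lies between 0.70 and 0.85. The lowest values are those of Elovl5 with Acly and Elovl6.

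For Scd the relations were tested by permutation within dose groups, over a family of 9 genes with Benjamini-Hochberg adjustment. Acaca was highest, with Pearson r = 0.65 (permutation p = 0.00016, adjusted p = 0.00144) and Spearman rho = 0.59 (permutation p = 0.00064). Fasn had r = 0.64 and rho = 0.61 (permutation adjusted p = 0.00259 and 0.00227), Elovl6 r = 0.63 and rho = 0.58 (permutation adjusted p = 0.00153 and 0.00219) and Acly r = 0.62 and rho = 0.59 (permutation adjusted p = 0.00153 and 0.00219). Srebf1 followed at r = 0.57 and rho = 0.49 (permutation adjusted p = 0.00882 and 0.0148), then Fads1 at r = 0.48 and rho = 0.39 (0.0243 and 0.0450, permutation adjusted). Elovl5 had r = 0.43 and rho = 0.36 (permutation adjusted p = 0.0336 and 0.0510), and Me1 r = 0.39 and rho = 0.42 (0.0243 and 0.0208). Fads2, with r = 0.44 and rho = 0.44, passed on rank only (permutation adjusted p = 0.0711 and 0.0417).

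Without the 2 animals farthest from the median of Scd on the same scale (group means subtracted), replicates 2 and 4 at 485 mg/kg, r was 0.59 for Acaca, 0.57 for Fasn, 0.55 for Elovl6, 0.58 for Acly and 0.53 for Srebf1. For the other 4 genes it lay between 0.38 and 0.53 (0.38 for Elovl5, 0.53 for Fads2). Within single groups of 6 animals the value for Acaca ran from 0.27 to 0.90 and was above 0 in all 6 groups, as it was for Elovl6, Acly and Me1. That for Fasn ran from -0.39 at 0.0485 mg/kg to 0.93 at 0.485 mg/kg. As a description of the background, r between Scd and all 9603 other genes whose mean was above the median probe set had a median of 0.01 and a 95th percentile of 0.32. The 5 genes most like Scd by this measure were Acaca (0.65), Pklr (0.65), Fasn (0.64), Elovl6 (0.63) and Rab8b (0.62). Pklr encodes liver pyruvate kinase.

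The shared movement was plainest at 485 mg/kg. Replicate 2 was the lowest of its group in all 10 genes, with a median distance of -0.84 from the group means, and replicate 1 was the highest in 7. In vehicle, replicate 6 was the highest in 7 of 10. Thrsp, a lipogenic gene outside the 10, was 11.76 in replicate 2 against 12.68 to 13.26 in the other 5 animals of that group, and Pklr was 8.57 against 9.07 to 9.81. Replicate 2 was also lowest for Insig1 (10.14 against 10.69 to 11.18), and for Tkt (11.88 against 12.05 to 12.41) and Pgd (9.36 against 9.50 to 9.82) of the pentose phosphate pathway. It was lowest by little for Alb (15.02 against 15.05 to 15.06). Insig1 is in the list of lipogenesis regulators below, and Tkt and Pgd are in that of NADPH supply. Pck1, a gene of fasting, was 12.17 in that animal, within the 10.56 to 12.91 of the others. Igfbp1, Cpt1a, Tat, Angptl4 and Cidea also lay within the range of the others. In replicate 1 at 485 mg/kg Cpt1a (10.02 against 10.31 to 11.22) and Tat (8.59 against 8.69 to 9.41) were lowest. Angptl4 was highest there (9.87 against 8.33 to 9.81), and Pck1 and Igfbp1 lay within the others. In vehicle replicate 6 Pck1 (13.05 against 13.14 to 13.64) and Igfbp1 (8.88 against 9.28 to 10.21) were lowest. Cpt1a, Tat and Angptl4 lay within the others there. These genes were picked by name, so how far the low values of replicate 2 reached beyond lipogenic genes was not tested. Over all 31042 probe sets replicate 2 at 485 mg/kg was the lowest of its group in 15.4%. Feeding state and time of sampling were not tested.

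**Figure D4:**
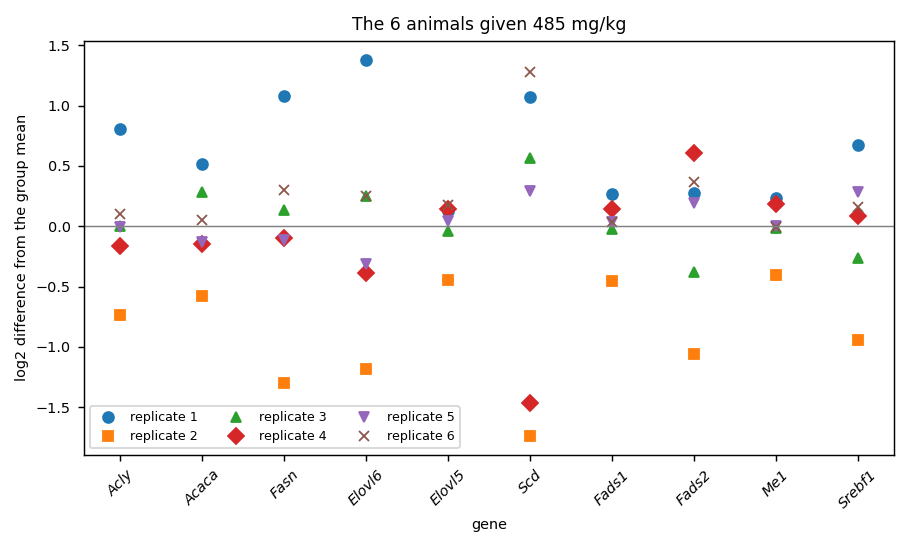
Log2 distance of each of the 6 animals given 485 mg/kg from its group mean, for the 10 genes (1 symbol per animal). Replicate 2 is lowest for all 10 genes, down to -1.74 for Scd, and replicate 1 is highest for 7.

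A list of genes of NADPH supply and the pentose phosphate pathway was set beside Me1. Of its 8 measured genes, 2 were called higher at 48.5 mg/kg and 5 at 485 mg/kg, and 0 lower. Over all probe sets 2.57% were higher and 0.821% lower at 48.5 mg/kg, and 7.81% and 7.22% at 485 mg/kg. The median change was 0.25 at 485 mg/kg. Tkt, transketolase of the pentose phosphate pathway, rose by 0.42 ± 0.07 at 48.5 mg/kg and by 1.23 ± 0.07 at 485 mg/kg (limma adjusted p = 0.00023 and 1.29e-15). At 485 mg/kg Pgd rose by 0.70 ± 0.09, Idh2 by 0.62 ± 0.07, Idh1 by 0.26 ± 0.06 and Taldo1 by 0.23 ± 0.05. Tkt and Taldo1 belong to the branch of the pathway that itself makes no NADPH, whereas Pgd, Idh1 and Idh2 encode enzymes that do. Idh2 also rose at 48.5 mg/kg (0.25 ± 0.07, adjusted p = 0.0285), a call lost without any 1 of 5 animals (vehicle replicates 4, 5 and 6 and replicates 3 and 6 at 48.5 mg/kg). Over all 36 animals with group means left in, the genes most like Me1 among 9604 were Zdhhc2, Tkt, Rexo2, Pgam1 and Psmd14, with r from 0.94 to 0.95, values that largely carry the differences between doses. For Fasn they were Acly (0.87), Fdps, Elovl6, Cyp51 and Acat2 (0.71), of which Fdps, Cyp51 and Acat2 are genes of sterol synthesis. The genes most like Elovl6 were Jpt2, Dtymk, Fasn, Secisbp2l and Lactb2 (0.76 to 0.79), and those most like Scd with group means left in were C1galt1, Wnt2, Nck2, Fabp5 and Calml4 (0.56 to 0.62).

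**Figure D5:**
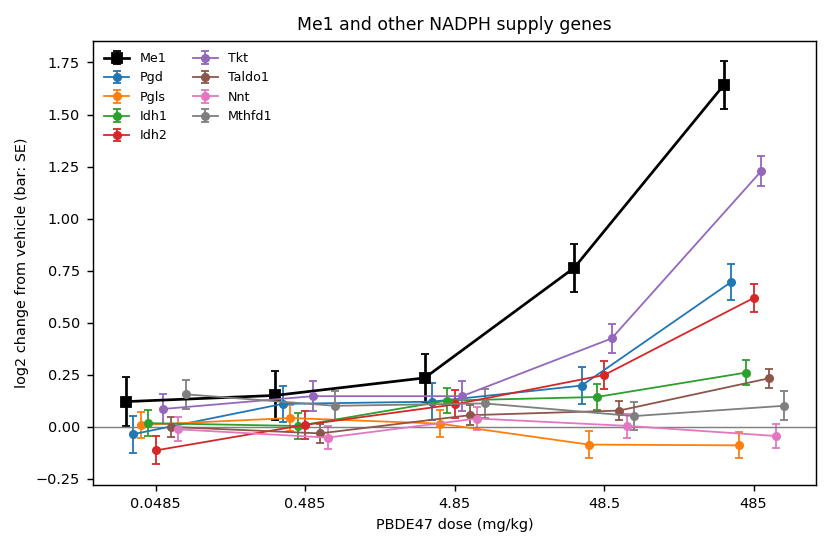
Log2 change from vehicle ± SE (limma, 6 animals per group) of Me1 and 8 genes of NADPH supply and the pentose phosphate pathway at each dose. Me1 and Tkt reach 1.64 and 1.23 at 485 mg/kg, and the other genes lie below 1 log2 unit.

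Among 24 measured regulators of lipogenesis, 1 was called higher and 3 lower at 485 mg/kg and 1 lower at 48.5 mg/kg, with a median change of -0.02 at 485 mg/kg. These are 4.17% and 12.5% of the list at 485 mg/kg, near the 7.81% and 7.22% of all probe sets. At 48.5 mg/kg 2.57% of all probe sets were higher and 0.821% lower. The counts of the lists that follow are to be read against the shares at the same dose. Scap, the escort protein of SREBPs, fell by 0.34 ± 0.08 and by 0.56 ± 0.08 at the 2 doses (limma adjusted p = 0.0115 and 2.21e-06). Nfyb, a subunit of the CCAAT-binding factor NF-Y, fell by 0.42 ± 0.10 at 485 mg/kg and Usf1, an E-box factor, by 0.18 ± 0.06, while Mlxipl rose by 0.28 ± 0.08. At 48.5 and 485 mg/kg Thrsp was not called (0.28 ± 0.31 and 0.44 ± 0.31), nor were Insig1 (-0.56 ± 0.29 and -0.61 ± 0.29), the liver X receptor gene Nr1h3 (0.06 ± 0.06 and 0.13 ± 0.06) and Ppara (0.31 ± 0.28 and 0.38 ± 0.28). At the 3 lower doses 0 of these were called in limma, and Thrsp at 0.485 mg/kg was 0.42 ± 0.31.

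Of 17 measured genes of elongation, acyl activation and carbon supply outside the 10, 4 rose and 2 fell at 485 mg/kg, with a median change of 0.11. Elovl2, another elongase of polyunsaturated acids, fell by 0.65 ± 0.10 and Acsl5 by 0.31 ± 0.10, while Fads3 rose by 0.53 ± 0.10 and Acsl4 by 0.27 ± 0.09. At 48.5 mg/kg 1 rose, Elovl1 (0.19 ± 0.05, limma adjusted p = 0.0396). Of 12 genes of triglyceride synthesis and export 3 rose and 1 fell at 485 mg/kg (median 0.17), among them Mttp (0.27 ± 0.06), Tm6sf2 (0.23 ± 0.06), Agpat1 (0.18 ± 0.06) and Agpat3 (-0.35 ± 0.09). Tm6sf2 was the 1 called at 48.5 mg/kg (0.23 ± 0.06).

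Lipid droplet genes were called higher in 3 of 16 cases at 48.5 mg/kg and 5 of 16 at 485 mg/kg, 0 lower, with a median of -0.03 at 485 mg/kg. Cidea, a droplet-fusion protein, rose by 1.64 ± 0.30 there, Mgll, monoglyceride lipase, by 1.17 ± 0.09, Plin3 by 1.13 ± 0.08 and Fitm2 by 0.53 ± 0.10. Of 11 genes of glycolysis and glucose uptake 5 rose and 1 fell at 485 mg/kg (median 0.11), with Gpi at 0.66 ± 0.11, Pgk1 at 0.48 ± 0.05, Pdha1 at 0.32 ± 0.08 and Tpi1 at 0.32 ± 0.05. Pgk1 was the 1 called at 48.5 mg/kg (0.24 ± 0.05). Pklr, which tracked Scd from animal to animal, was not called at any dose and stood at -0.06 ± 0.16 at 485 mg/kg.

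Of 9 measured genes of the fasting response, 3 were called lower and 0 higher at 485 mg/kg, with a median of -0.54. Igfbp1 fell by 1.95 ± 0.50, Pck1 by 1.36 ± 0.23 and Cpt1a by 0.83 ± 0.17, and 0 of 9 were called at 48.5 mg/kg. Of 11 clock genes 2 fell at 485 mg/kg, Npas2 by 1.02 ± 0.35 and Nr1d1 by 0.41 ± 0.11, and 0 at 48.5 mg/kg (median -0.03 at 485 mg/kg). The part of fasting state and time of day in the changes of the 10 genes was not tested.

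Markers of several liver cell types were called at the top dose as well. Of 8 hepatocyte markers 4 were called lower at 485 mg/kg, and 0 of the 8 lay below the array median. The log2 of their summed linear signal ran from 17.05 to 17.10 against 17.19 to 17.22 in vehicle. Such a sum is weighted to the brightest markers, and the ranges for the other cell types are of the same kind. Of 8 macrophage markers 4 were lower (11.62 to 12.28 against 12.35 to 12.74), and of 5 endothelial markers 2 were lower (11.14 to 11.30 against 11.27 to 11.56). Of 7 stellate cell markers 0 were called (11.26 to 12.08 against 11.38 to 12.29). Of 5 cholangiocyte markers 1, Epcam, was called higher (sum 9.83 to 10.12 against 9.32 to 9.66). Only Epcam among these 5 had a change above 0, and their median change was -0.12, so the higher sum does not describe the list. At 485 mg/kg 2 of these 5 lay below the array median. Fat cells also express Scd, Fasn and Me1. Of 7 adipocyte markers 1 was higher (Cidea, also in the droplet list) and 1 lower (Cfd). Without Cidea their summed level was 8.30 to 9.06 at 485 mg/kg and 8.68 to 9.34 in vehicle. In both groups 3 of the 7 lay below the array median, so this sum says little about fat cells. The part of these cell types in the changes of the 10 genes was not tested.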

How the data were processed

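Per the labels, RNA from 36 rat livers was hybridised to 36 Affymetrix rat arrays, and only RNA with an integrity number of at least 7 was used. The deposited table holds log2 values made by the authors with RMA in the affy package, per the submitters' processing notes. RMA forces every array onto 1 common distribution, so a change in total RNA is not seen. An array has no depth, and the number of animals limits precision. Groups come from the sample titles.

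Of 31099 probe sets, 57 controls were left out and 31042 tested with no filter. The platform's annotation gave 20826 of them 1 gene, and 20758 matched RefSeq (GRCr8). The test was limma 3.58.1 (R 4.3.3, lmFit and eBayes) with a mean per group, two-sided, 9 comparisons. The study named R/maanova, which was not used. The ordinary linear-model test stood in as an alternative. P-values measure the spread between animals of a group. Correlations used 100000 permutations within groups. The tests were checked on simulated data.

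The 10 genes, 8 gene lists (elongation, activation and carbon supply, NADPH supply, regulators, triglyceride, lipid droplet, glycolysis, fasting, clock) and 6 marker lists were chosen with earlier results of these data known. All 10 genes are described. From each list the text names up to 4 called genes of largest change at 485 mg/kg and up to 2 at 48.5 mg/kg, plus Taldo1 (named for its role, after its values were seen), Thrsp, Mlxipl, Nr1h3, Ppara, Insig1 and Pklr, and for likeness the 5 most correlated genes among those with a mean above the median. Alternatives were other normalization, brightness filter, moderation, array weights, a 1.5-fold minimum, 12 arrays only, the mean of probe sets, a replicate block and each array left out. The within-array differences, the values of other genes in single animals, and the alternatives for the NADPH list were added after seeing the data.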

Additional observations from a re-analysis of the deposited data

Results flagged for a closer look

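In 3 of 60 groups of 6 animals 1 value lay far from the rest, its gap to the nearest animal, as a share of the group's range, exceeding the critical value of Dixon's test at 95%. Chance gives about 1 in 20 such groups. Elovl5 at 485 mg/kg was 11.62 in replicate 2, below the next lowest animal at 12.03. Fasn at 4.85 mg/kg was 10.49 in replicate 1, above the next highest at 9.80. Fasn at 48.5 mg/kg was 10.34 in replicate 6, above the next highest at 9.90.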

How the results depend on the processing

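Single-gene values at 48.5 and 485 mg/kg and for the step between these doses were recomputed 660 times, of which 605 kept direction and side of the threshold, 41 lost the call, 3 gained it and 11 changed sign. The sign changes were all of small values called in no setting. Fads1 at 48.5 mg/kg was -0.00081 with quantile normalization and ran from -0.026 to 0.046 with 1 array left out, at 485 mg/kg from -0.089 to 0.055 and between these doses from -0.094 to 0.050. Srebf1 at 48.5 mg/kg ran from -0.19 to 0.080, and Acly between 48.5 and 485 mg/kg from -0.023 to 0.29. Of 294 recomputed counts, 274 stayed within 1.5 times the reported one. These include the counts at 0.0485, 0.485 and 4.85 mg/kg against vehicle and in the steps between these doses, which were 0 in every setting. The count of NADPH supply genes at 48.5 mg/kg moved in 8 of 22 alternatives. That of members for 48.5 against 4.85 mg/kg moved in 4 of 22. Requiring a 1.5-fold minimum change left 0 members at 48.5 mg/kg against vehicle, 1 (Me1) at 485 mg/kg, 0 in each of the steps 48.5 against 4.85 and 485 against 48.5 mg/kg, and 0 and 1 NADPH supply genes at 48.5 and 485 mg/kg. With only the 12 arrays compared, the step from 4.85 to 48.5 mg/kg called 2 members and that from 48.5 to 485 mg/kg 2, and NADPH supply at 48.5 mg/kg 1 gene, as with quantile normalization (1). Leaving out 1 array at a time gave 2 to 4 members at 48.5 mg/kg against vehicle, 5 to 6 at 485 mg/kg, 0 to 1 for 48.5 against 4.85 mg/kg, 3 to 4 for 485 against 48.5 mg/kg, 5 to 7 in the F test, and 1 to 2 NADPH supply genes at 48.5 mg/kg. Correlations of Scd passed for 5 of 9 genes without the 0.485 mg/kg group, against 8. Same-numbered animals were treated as not paired. Their deviations from the group means had a median r of 0.01, with 19 of 90 pairs above 0.1. Of 36 arrays 11 were closest to their own number, a count given with no chance share. These values do not settle whether the numbers carry a shared effect. With the replicate block the counts were 4 at 48.5 mg/kg and 6 at 485 mg/kg, as without it. Causes were not tested. Signal near background was not assessed for single probe sets.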
